A study of Mus musculus with 4 samples.

Results

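The mitochondrial genome of the mouse carries 37 genes on chromosome M, 13 for mRNAs, 2 for rRNAs and 22 for tRNAs, and all of them were followed here in fetal oocytes of normal diet (ND) and high-fat diet (HFD) mothers. The members were chosen by annotation alone, as every gene of chromosome M among 55401 gene identifiers, and all 37 identifiers were listed in every file, 2 of them with no count in any library. RNA came from germ cells, called primordial germ cells in the labels, sorted as SSEA-1 positive from ovaries of fetuses at E18.5, and SMART-Seq2, which copies polyadenylated RNA from few cells, was used to amplify it. ICR mothers had received ND or HFD for 4 months from the age of 3 weeks and were mated with males on a normal diet, and the labels name no engineered allele, so that the groups differed by maternal diet. Each diet had 2 libraries, and each library pooled 300 oocytes from 10 fetuses. No source says how litters were divided between the libraries, so the tests measure the spread between these samples. In pooled cells, fewer mitochondria per cell, fewer cells with a transcript and less RNA per mitochondrion cannot be told apart.

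Mitochondrial DNA is transcribed from both strands as long precursors that run through many genes. The tRNA genes lie between the rRNA and mRNA genes, and cutting out the tRNAs releases the other RNAs. The 2 rRNAs build the ribosome of the organelle, the mRNAs encode subunits of the respiratory chain and of ATP synthase, and nuclear genes supply all other subunits. Oocytes hold large mitochondrial pools, which the embryo inherits from the mother.

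Total counts per library were between 5723605 and 8223255, and 3 counts corresponded to between 0.365 and 0.524 CPM, the unit that corrects counts for library total. The 4 libraries differed strongly beyond diet. Over all 10 germ cell markers the summed level was between 2190.5 and 3863 CPM in ND and between 3048 and 5372 CPM in the HFD libraries, and every one of these markers exceeded 3 counts in every library. Single markers went opposite ways under these sums. Dazl held 14247 and 29465 counts in ND replicates 1 and 2, against 2926 and 49 in HFD replicates 1 and 2, while Sycp1 held 36 and 48, against 9038 and 7978, and Nobox 14 and 50, against 8252 and 3246. The 6 stroma markers summed to 1799 and 37.1 CPM in ND replicates 1 and 2, against to 949 and 7037 CPM in HFD replicates 1 and 2. The 6 blood markers reached 1973 CPM in ND replicate 1 and between 1.41 and 10.8 CPM in the other libraries. The 8 pregranulosa markers ranged from 17.0 CPM in HFD replicate 1 to 1164 CPM in HFD replicate 2, the 4 endothelium markers from 15.2 CPM in ND replicate 1 to 696 CPM in HFD replicate 1, and the 5 macrophage markers from 3.84 to 25.3 CPM. Single genes carried several of these sums. Amhr2 held 6372 counts in HFD replicate 2, beside between 12 and 89 on the other 7 pregranulosa markers. Kdr held 4398 counts in HFD replicate 1, beside between 10 and 64 on the other 3 endothelium markers. Fst (2990 counts) carried the pregranulosa sum and Dazl the germ cell sum in ND replicate 2, and Col1a1 (6061 counts) the stroma sum in HFD replicate 1. In HFD replicate 2 the stroma counts lay mostly on Col1a1, Col3a1 and Postn (15691, 16987 and 7281). The part of these other cells in the values below was not tested.

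A stretch of the mitochondrial genome has a near-identical copy in the nuclear genome, and this bears on which members can be measured. The transcripts of chromosome M were aligned with blastn to those of annotated pseudogenes, and other transcripts were not searched. The stretch chrM:6390-11042 (GRCm38) was matched by 7 of these pseudogenes on the minus strand of chr1:24611535-24616197, with 2 mismatches in 4140 aligned bases. The windows below show the start of mt-Nd3, the gene of a complex I subunit, at chrM:9459-9518 on the plus strand, and of its copy Gm28438 at chr1:24613060-24613119 on the minus strand. Capitals mark the base that differs, T3C, counted from 1 at the 5′ end of the window with the mitochondrial base first.
mt-Nd3: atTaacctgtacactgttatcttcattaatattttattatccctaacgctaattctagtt
Gm28438: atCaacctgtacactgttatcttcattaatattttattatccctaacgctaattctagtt

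Outside that stretch, mRNA and rRNA genes had more distant copies or none among pseudogenes that met the limits of 90% identity over 100 bases. The tRNA genes are shorter than 100 bases, so this search could not find copies of them. As a contrast, the next pair shows part of mt-Cytb, the gene of cytochrome b, at chrM:14687-14746 on the plus strand, and of Gm11410, its copy with 92.9% identity, at chr4:80004531-80004590 on the plus strand. The capitals mark T22C, C25T, G28A and C49T, counted in the same way.
mt-Cytb: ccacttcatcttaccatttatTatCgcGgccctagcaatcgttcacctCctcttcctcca
Gm11410: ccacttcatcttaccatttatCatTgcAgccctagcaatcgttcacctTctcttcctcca

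Among the tRNA genes, mt-Tq (glutamine, chrM:3772-3842, minus strand) and mt-Tp (proline, chrM:15356-15422, minus strand) held most counts, while mt-Td (aspartate, chrM:6942-7011, plus strand) and mt-Tk (lysine, chrM:7700-7764, plus strand) lie in the copied stretch and held none. They are printed to show how short these genes are. Capitals mark bases that the annotation also gives to a neighbouring gene, which for mt-Tq is mt-Ti. All sequences are those of the GENCODE M21 transcripts on GRCm38.
mt-Tq: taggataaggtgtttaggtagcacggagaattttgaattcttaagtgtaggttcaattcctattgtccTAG
mt-Tp: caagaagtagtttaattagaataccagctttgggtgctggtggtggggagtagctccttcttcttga
mt-Td: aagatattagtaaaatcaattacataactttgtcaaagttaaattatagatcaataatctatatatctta
mt-Tk: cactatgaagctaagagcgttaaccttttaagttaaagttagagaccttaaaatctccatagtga

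All 37 genes together took a similar share of each library, whereas the split between rRNAs and mRNAs was far apart between the diets. Chromosome M held 5.81% and 5.17% of all counts in ND replicates 1 and 2, against 5.79% and 6.51% in HFD replicates 1 and 2. The ND and HFD values overlapped, at 5.49% ± 0.450 and 6.15% ± 0.505 (SD, n = 2 each; exact permutation test, two-sided p = 0.667). With 2 libraries against 2, no such test can give a p under 0.33. Counting error was small beside the spread between libraries, as the exact Clopper-Pearson 95% interval for HFD replicate 2, the shallowest library, ran from 6.49% to 6.53%. Such intervals cover counting error only, because the reads carry no molecular identifiers.

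The 2 rRNAs took 0.910% and 0.678% of the counts in ND replicates 1 and 2, against 4.66% and 3.01% in HFD replicates 1 and 2. The HFD values were both higher than either ND value, with means of 3.84% ± 1.16 and 0.794% ± 0.164 (SD, n = 2 each; exact permutation test, two-sided p = 0.33, the smallest this design allows). The 13 mRNAs took 4.89% and 4.42% in ND, against 1.12% and 3.48% in HFD replicates 1 and 2. Here both HFD values lay below both ND values, with means of 2.30% ± 1.67 and 4.65% ± 0.33 (SD, n = 2 each; exact permutation test, two-sided p = 0.33, again the smallest possible). The difference between the diets in the mRNA share was -2.35 percentage points. It was -3.53 percentage points without HFD replicate 2 and -1.17 without HFD replicate 1.

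Within chromosome M, mRNAs made up 84.2% and 85.4% of the counts in the ND libraries, but 19.3% in HFD replicate 1 and 53.5% in HFD replicate 2. The rRNAs made up 15.7% and 13.1% in the ND libraries, 80.4% in HFD replicate 1 and 46.3% in HFD replicate 2. The ND libraries were close to each other, and the HFD libraries were apart from each other as well as from the ND libraries. Counts on rRNAs divided by counts on mRNAs gave ratios of 0.186 and 0.154 in ND, against 4.17 and 0.865 in HFD replicates 1 and 2. SMART-Seq2 copies polyadenylated RNA, and how fully it copied rRNAs and mRNAs was not measured. These are thus ratios of counts, not of molecules.

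**Figure D1:**
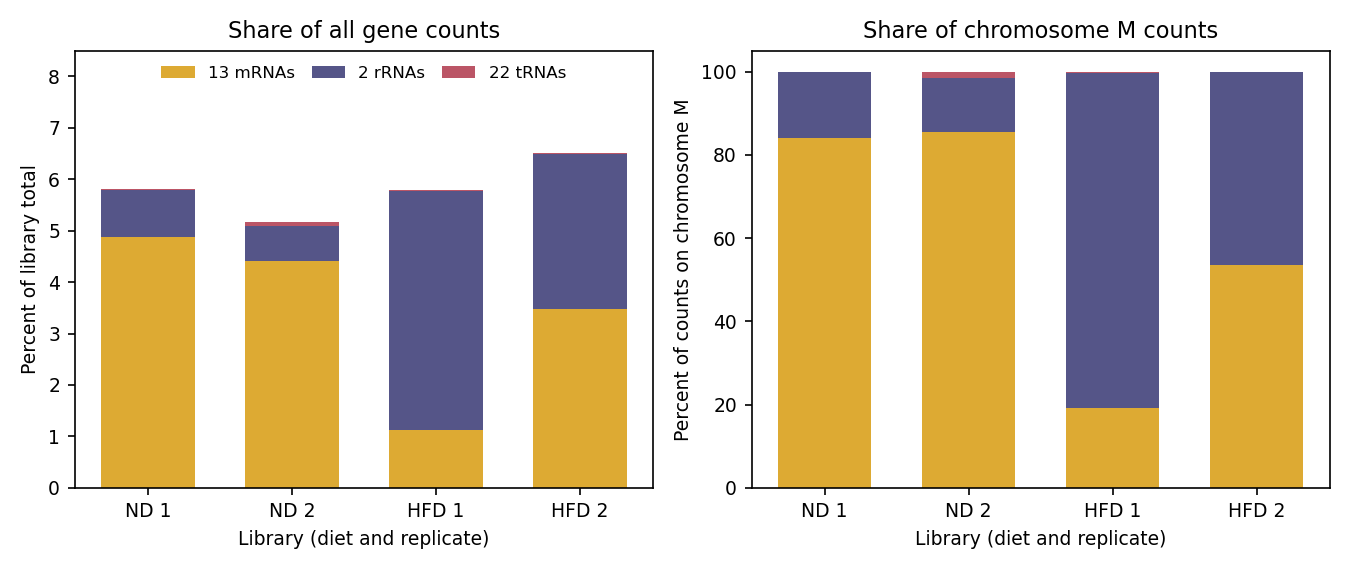
Stacked bars give the counts on the 13 mRNAs, 2 rRNAs and 22 tRNAs of chromosome M in each of the 4 libraries, as percent of the library total (left) and as percent of chromosome M counts (right). The bars on the left reach between 5.17% and 6.51%, while the rRNA part on the right is 15.7% and 13.1% in ND and 80.4% and 46.3% in the HFD libraries.

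Gene by gene, none of the 37 members met the limits of an adjusted p under 0.05 and a fold change over 1.5 in edgeR's quasi-likelihood test, and neither did any of the 19335 genes tested (0% called). Of the members, 28 passed edgeR's filter on low counts, 12 with a fitted value above 0 and 16 below, and 3 reached an unadjusted p under 0.05, beside 11.2% of all genes tested. The fitted log2 differences of HFD minus ND had a median of -0.24 over these 28 members and 0.03 over all genes tested. The 9 members that did not pass the filter were tRNA genes with between 0 and 62 counts per library.

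By share of the library total, both HFD libraries lay above both ND libraries for 5 of the 37 members and below them for 8, and the diets overlapped for 24. Among the 28 members tested these were 4 above (14.3%) and 8 below (28.6%), beside 13.9% and 13.4% of all genes tested. Of the 8 below, mt-Nd3, mt-Atp6 and mt-Atp8 lie in the copied stretch, and among the 22 tested members not wholly in it, a count added after seeing the data, 4 were above (18.2%) and 5 below (22.7%). The members are cut from the same precursors and share each library's total, so they do not count as independent. The 5 members above were the rRNAs mt-Rnr1 and mt-Rnr2 and the tRNAs mt-Tf (phenylalanine), mt-Ti (isoleucine) and mt-Tc (cysteine). Of these, mt-Ti did not pass the filter. Its 6 counts in HFD replicate 1 made 0.929 CPM, beside 0.851 CPM from 7 counts in ND replicate 1. The 8 members below were the mRNAs mt-Nd1, mt-Nd3, mt-Nd5, mt-Co1, mt-Cytb, mt-Atp6 and mt-Atp8 and the tRNA mt-Tp. After normalization by TMM, the method of edgeR that sets the libraries to a common scale, the diets overlapped for mt-Rnr1 and mt-Atp6, and mt-Te (glutamate) joined the members above.

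**Figure D2:**
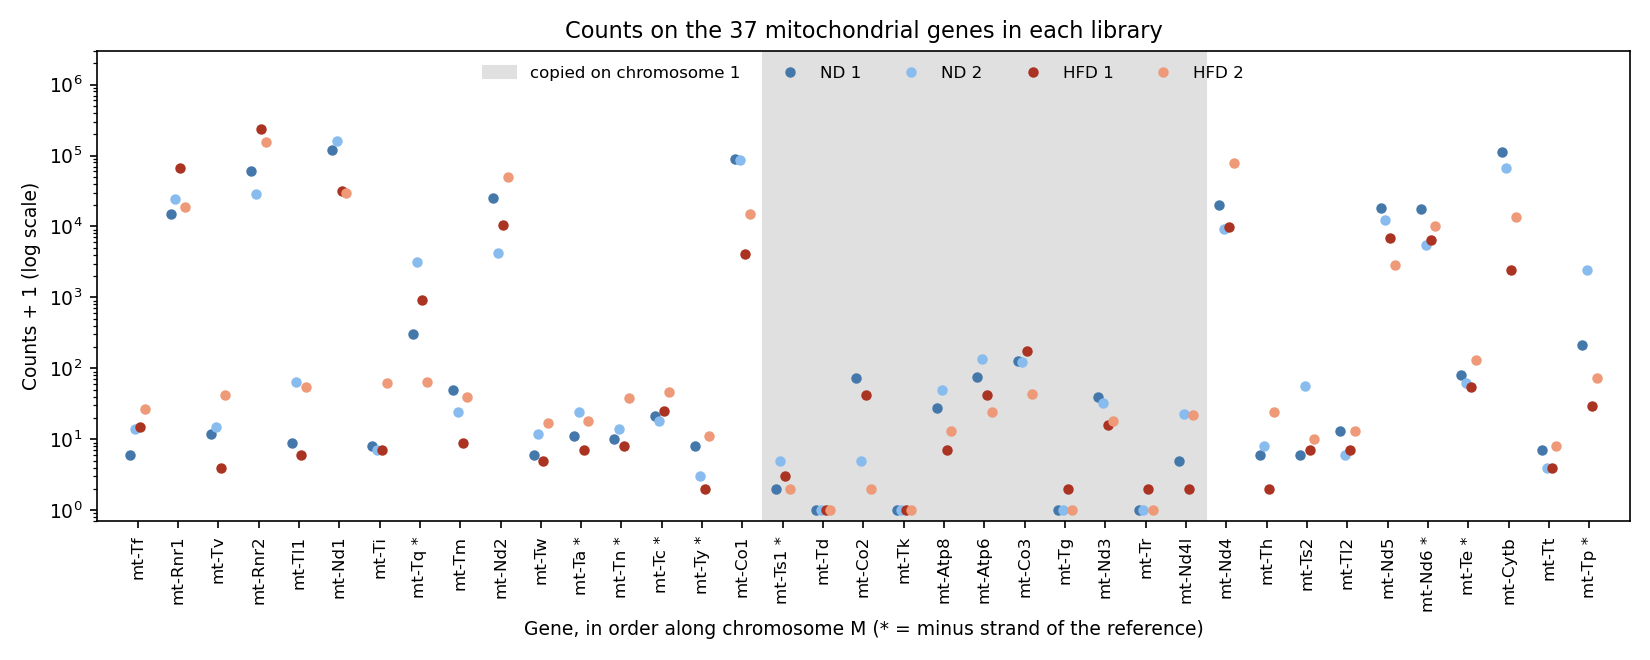
Points give counts plus 1 on a log scale for each of the 37 genes, in their order along chromosome M, in the 4 libraries. The 11 genes in the shaded part lie wholly in the stretch copied on chromosome 1 and hold between 0 and 173 counts per library, while mt-Nd1 at the left holds between 29628 and 160633.

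The 2 rRNA genes lie next to each other near the start of the genome. mt-Rnr2, the rRNA of the large ribosomal subunit (chrM:1094-2675), had TMM-normalized levels of 7331 and 3929 CPM in ND replicates 1 and 2, against of 52994 and 18407 CPM in HFD replicates 1 and 2. Both HFD libraries were above both ND libraries, and the fitted log2 difference was 2.66 ± 2.24 (SE; adjusted p = 0.672), and 1.59 without HFD replicate 1. By counts, mt-Rnr2 was the second most abundant gene of the whole library in both HFD libraries, and it ranked 5 and 35 in the ND libraries.

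mt-Rnr1, the rRNA of the small subunit (chrM:70-1024), had 1821 and 3439 CPM in ND replicates 1 and 2, against 15390 and 2244 CPM in HFD replicates 1 and 2, after TMM normalization. One HFD library was far above and the other lay between the ND libraries on this scale, and the fitted log2 difference was 1.75 ± 2.21 (SE; adjusted p = 0.817). Without HFD replicate 1 it was -0.35. The level of mt-Rnr2 per kilobase was 2.43 and 0.690 times that of mt-Rnr1 in ND, against 2.08 and 4.95 times in HFD replicates 1 and 2, so that the order of the 2 rRNAs was not the same in every library.

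Complex I, the entry point of electrons from NADH, has 7 mitochondrial subunits, and their mRNAs did not share a direction. mt-Nd1 (chrM:2751-3707), whose gene follows the rRNAs, had TMM-normalized levels of 14837 and 22332 CPM in ND, against of 7247 and 3547 CPM in the HFD libraries. The diets did not overlap, and the fitted log2 difference was -1.78 ± 2.11 (SE; adjusted p = 0.796). The level of mt-Rnr2 per kilobase was 0.299 and 0.106 times that of mt-Nd1 in ND, against 4.42 and 3.14 times in HFD replicates 1 and 2. For these neighbours in the genome, the order of counts per kilobase was thus opposite in the diets. How fully the amplification copied either RNA was not measured.

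mt-Nd2 (chrM:3914-4951) had 3053 and 592 CPM in ND replicates 1 and 2, against 2377 and 6051 CPM in HFD replicates 1 and 2. The diets overlapped, and replicates of one diet differed by 5.57-fold in ND and 5.45-fold in HFD by library share. mt-Nd4 (chrM:10167-11544), of which 876 of 1378 bases lie in the copied stretch, had 2458 and 1264 CPM in ND, against 2230 and 9267 CPM in HFD replicates 1 and 2. HFD replicate 2 was the one high library, and the HFD replicates differed by 8.90-fold by library share. The fitted log2 differences were 1.21 ± 2.12 for mt-Nd2 and 1.63 ± 2.11 for mt-Nd4 (SE), with adjusted p-values of 0.883 and 0.823. For mt-Nd2 the value was 2.74 without ND replicate 1, 0.37 without ND replicate 2 and 0.40 without HFD replicate 2, and for mt-Nd4 it was 0.27 without HFD replicate 2.

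mt-Nd5 (chrM:11742-13565) had 2196 and 1716 CPM in ND, against 1546 and 347 CPM in HFD replicates 1 and 2. Both HFD values were below both ND values, with a fitted log2 difference of -1.05 ± 1.97 (SE; adjusted p = 0.894). It was -2.61 without HFD replicate 1 and -0.33 without HFD replicate 2. mt-Nd6 (chrM:13552-14070), the member whose mRNA comes from the opposite strand to all other mRNAs, overlaps the end of mt-Nd5. It had 2165 and 764 CPM in ND replicates 1 and 2, against 1452 and 1204 CPM in the HFD libraries, which lay between the ND values. Its fitted log2 difference was -0.14 ± 1.90 (SE; adjusted p = 0.990), and 0.73 without ND replicate 1. This amplification does not mark the strand of a read, so RNA of mt-Nd6 cannot be told apart from antisense RNA over the same bases. mt-Nd3 and mt-Nd4l lie in the copied stretch and are given below.

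The remaining abundant mRNAs had the largest fitted differences among mRNAs, both toward lower values in HFD. mt-Cytb (chrM:14145-15288), the mitochondrial subunit of complex III, had TMM-normalized levels of 13506 and 9149 CPM in ND, against of 559 and 1636 CPM in HFD replicates 1 and 2. Every HFD value was below every ND value, and the fitted log2 difference was -3.37 ± 2.24 (SE; adjusted p = 0.566). By counts, mt-Cytb ranked 3 and 5 among all genes in ND, against 784 and 72 in HFD replicates 1 and 2.

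mt-Co1 (chrM:5328-6872), the catalytic subunit of complex IV, had 10859 and 12104 CPM in ND, against 926 and 1808 CPM in HFD replicates 1 and 2. The diets did not overlap, and the fitted log2 difference was -3.07 ± 2.18 (SE; adjusted p = 0.597). The ND replicates differed by 1.03-fold and the HFD replicates by 4.18-fold by library share. Of its 1545 bases, 483 lie in the copied stretch. The 3 mRNAs of complex IV together took 1.08% and 1.12% of all counts in ND, against 0.0664% and 0.265% in HFD replicates 1 and 2, nearly all of them on mt-Co1. As mt-Co2 and mt-Co3 lie wholly in the copied stretch, this sum restates mt-Co1 and does not compare the 3 mRNAs.

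DESeq2, run as an alternative, called 3 members of the 14 it gave an adjusted p, all lower in HFD, namely mt-Cytb (log2 difference -3.42, adjusted p = 0.0139), mt-Co1 (-3.13, adjusted p = 0.0208) and mt-Tp (-4.73, adjusted p = 0.00280). The same setting called 45.3% of the 5601 genes to which it gave an adjusted p, so that the share of members called was not above the background.

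**Figure D3:**
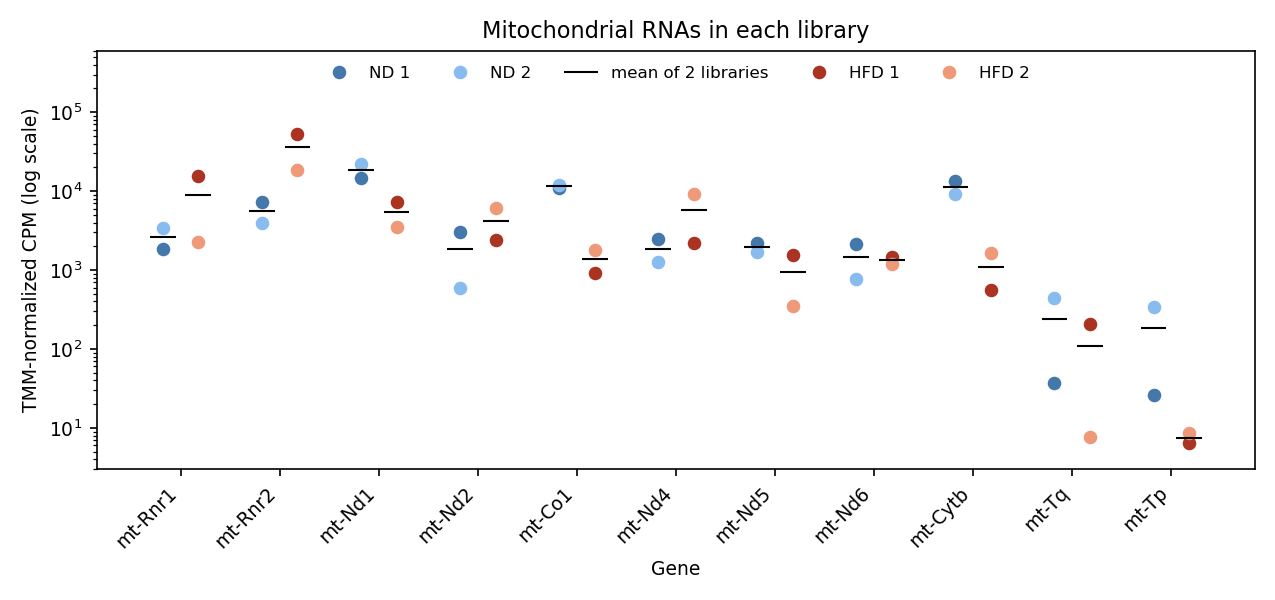
Points give TMM-normalized CPM on a log scale in each of the 4 libraries for the 11 mitochondrial RNAs with the highest summed counts, and lines give the mean of the 2 libraries of a diet. mt-Co1, mt-Cytb, mt-Nd1, mt-Nd5 and mt-Tp have both HFD points below both ND points, mt-Rnr2 has both above, and the diets overlap for the other 5.

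Levels of different genes were compared as CPM per kilobase of exon (RPKM). The full length was used, although 483 of 1545 bases of mt-Co1 and 876 of 1378 of mt-Nd4 lie in the copied stretch. Genes wholly in that stretch held few counts, so the places of mt-Co1 and mt-Nd4 in this order are uncertain. Between rRNAs and mRNAs the order also depends on how fully the amplification copied each, which was not measured. In the ND libraries mt-Nd1 was first with 18451 ± 4281 RPKM, followed by mt-Cytb with 9553 ± 3100 and mt-Co1 with 7102 ± 155 (SD, n = 2). Both libraries had mt-Nd1 above mt-Cytb, whereas the means of mt-Cytb and mt-Co1 differed by less than the SD of mt-Cytb. mt-Rnr2 followed with 3448 ± 1643 RPKM. In the HFD libraries mt-Rnr2 was first with 19903 ± 4137 RPKM, followed by mt-Rnr1 with 7206 ± 5341, mt-Nd4 with 5458 ± 6159, mt-Nd1 with 5285 ± 176 and mt-Nd2 with 5033 ± 4911 (SD, n = 2). The 4 genes after mt-Rnr2 did not differ from each other beyond their spread. mt-Cytb was at 1210 ± 1240 and mt-Co1 at 1058 ± 919 RPKM in these libraries.

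The 11 genes that lie wholly in the copied stretch held few counts, between 0 and 173 per library, while each of the other 7 mRNAs held between 2459 and 160633. They were the mRNAs mt-Co2 and mt-Co3 of complex IV, mt-Atp6 and mt-Atp8 of ATP synthase, mt-Nd3 and mt-Nd4l of complex I, and the tRNAs mt-Ts1 (serine), mt-Td, mt-Tk, mt-Tg (glycine) and mt-Tr (arginine). A read from the aligned parts of this stretch matches chromosome 1 equally or nearly equally well. How such reads were counted is not given in the sources used here. For mt-Atp8 and these tRNAs no pseudogene was matched directly, and they were placed in the stretch by their position between matched genes. The counts of these genes are therefore given without reading them as levels. The 6 mRNAs in the stretch summed to 346 and 360 counts in ND replicates 1 and 2, against to 277 and 117 in HFD replicates 1 and 2. mt-Co3 had the most, with 128 and 120 counts in ND and 173 and 43 in the HFD libraries.

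The copies on chromosome 1 held 1116 and 1584 counts in ND replicates 1 and 2, against 785 and 494 in HFD replicates 1 and 2. Gm28438, shown above, had 586 and 968 counts in ND, against 74 and 121 in the HFD libraries, where mt-Nd3 had 39 and 31, and 15 and 17. The copy thus held more counts than the mitochondrial gene in every library, as did the copies of mt-Co3 and mt-Nd4l. Both Gm28438 and mt-Nd3 were lower in the HFD libraries by count. Gm28437, the copy of mt-Co3, had 153 and 226 counts in ND, against 408 and 84 in HFD replicates 1 and 2. Among copies elsewhere, Gm13339 on chromosome 2, with 96.7% identity to mt-Nd2, held the most, with 320 and 78 counts in ND replicates 1 and 2, against 416 and 320 in HFD replicates 1 and 2. Adding the copies on chromosome 1 moved the mean mRNA share from 4.65% to 4.67% in ND and from 2.30% to 2.31% in HFD. With so few counts on the copies, this could not change the order of the diets. Reads that were counted in neither place stay out of it.

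**Figure D4:**
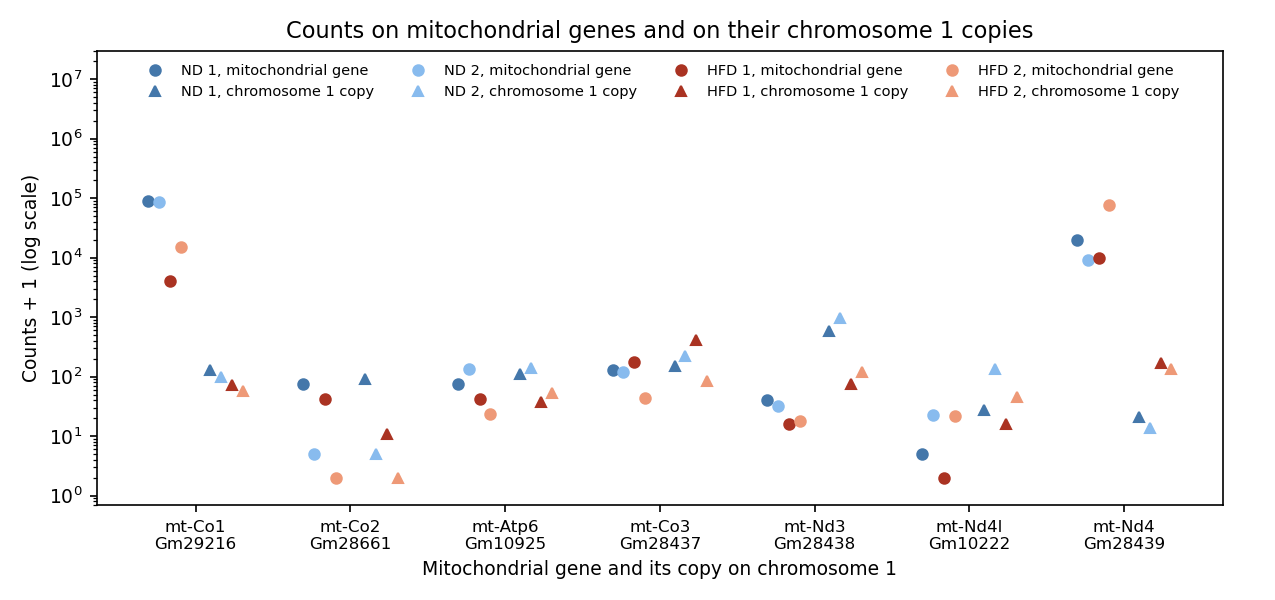
Circles give counts plus 1 (log scale) of 7 mitochondrial genes and triangles those of their copies on chromosome 1, in the 4 libraries. mt-Co1 and mt-Nd4, which extend beyond the copied stretch, stand well above their copies, whereas for mt-Co3, mt-Nd3 and mt-Nd4l the copy lies above the gene in every library.

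mt-Atp8 was the member with the smallest p, although it lies in the copied stretch. It had 27 and 49 counts in ND, against 6 and 12 in HFD replicates 1 and 2. The fitted log2 difference was -1.84 ± 0.48 (SE; unadjusted p = 0.00788 in edgeR's fit across all genes, adjusted p = 0.406). mt-Atp6, the other mitochondrial subunit of ATP synthase, whose gene begins inside that of mt-Atp8, had 75 and 134 counts in ND, against 41 and 23 in the HFD libraries.

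The tRNA genes together took 0.00922% and 0.0763% of all counts in ND replicates 1 and 2, against 0.0170% and 0.0116% in HFD replicates 1 and 2. The HFD values lay between the ND values, with a difference of -0.0285 percentage points between the means (n = 2 each; exact permutation test, two-sided p = 1), and 0.00506 without ND replicate 2. Mature tRNAs carry no poly(A) tail, and counts on these genes do not tell them apart from longer precursors. Genes for 8 tRNAs lie on the minus strand of the reference and 14 on the plus strand. The former held 646 and 5759 counts in ND replicates 1 and 2, against 1039 and 374 in HFD replicates 1 and 2. The latter held 112 and 201, against 58 and 288. In every library but HFD replicate 2, most of the minus-strand counts lay on mt-Tq and mt-Tp. The reads do not mark their strand, so these counts cannot be assigned to RNA of one strand.

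mt-Tq had 304 and 3174 counts in ND replicates 1 and 2, against 918 and 64 in HFD replicates 1 and 2. The diets overlapped, and the replicates differed by 10.99-fold in ND and 12.7-fold in HFD by library share. Its fitted log2 difference was -1.15 ± 2.13 (SE; adjusted p = 0.892), and 1.57 without ND replicate 2. mt-Tp had 215 and 2465 counts in ND replicates 1 and 2, against 28 and 71 in HFD replicates 1 and 2. Both HFD libraries were below both ND libraries, and the fitted log2 difference was -4.63 ± 1.80 (SE; adjusted p = 0.406). ND replicate 2 was thus the high library for both of these genes, and without it the fitted difference of mt-Tp was -1.89.

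The 20 other tRNA genes had between 0 and 129 counts each per library, and in sum 239 and 321 in ND and 151 and 527 in HFD replicates 1 and 2. mt-Te was the highest of them, with 80 and 61 counts in ND, against 53 and 129 in HFD replicates 1 and 2. mt-Tc had 20 and 17 counts in ND, against 24 and 45 in the HFD libraries. It was the member with the second smallest p (log2 difference 1.17 ± 0.34 SE; adjusted p = 0.406). mt-Tf, the first gene before the rRNAs, had 5 and 13 counts in ND, against 14 and 26 in HFD replicates 1 and 2. mt-Ti had 7, 6 and 6 counts in the first 3 libraries and 62 in HFD replicate 2. mt-Ts2, the other serine tRNA, had 56 counts in ND replicate 2 and between 5 and 9 in the other libraries, and mt-Tl1, which reads leucine codons, had 63 and 53 in ND replicate 2 and HFD replicate 2 beside 8 and 5 in the other libraries. The tRNAs mt-Tv (valine), mt-Tm (methionine), mt-Tw (tryptophan), mt-Ta (alanine), mt-Tn (asparagine), mt-Ty (tyrosine), mt-Th (histidine), mt-Tl2 (leucine) and mt-Tt (threonine) had between 1 and 48 counts. mt-Ts1 had between 1 and 4, mt-Tg and mt-Tr had 1 count in HFD replicate 1 and 0 elsewhere, and mt-Td and mt-Tk had 0 in all 4 libraries.

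Nuclear genes that copy, transcribe and process the mitochondrial genome formed a list of 48, of which 39 were tested. None was called by edgeR, and 24 had a fitted value above 0 and 15 below, with a median log2 difference of 0.16 beside 0.03 over all genes tested. In this list 2 of the 39 reached an unadjusted p under 0.05, both with higher values in HFD, beside 11.2% of all genes tested. Polrmt, the RNA polymerase of mitochondria, had 37 and 33 counts in ND, against 767 and 137 in HFD replicates 1 and 2. The diets did not overlap for Polrmt, and the fitted log2 difference was 4.38 ± 1.55 (SE; adjusted p = 0.406). Without HFD replicate 1 it was 1.73. Polg2, the accessory subunit of the mitochondrial DNA polymerase, had 25 and 19 counts in ND, against 25 and 46 in the HFD libraries (log2 difference 0.97 ± 0.36 SE; adjusted p = 0.406).

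The other named genes of this list were high in single libraries of a diet. Polg, the catalytic subunit of the DNA polymerase, had 10888 and 93 counts in ND replicates 1 and 2, against 63 and 9177 in HFD replicates 1 and 2. Its fitted log2 difference was -0.27, and 5.30 without ND replicate 1. Elac2, which cuts the 3′ end of tRNAs, had 8896 counts in HFD replicate 2 and between 25 and 56 elsewhere, and Rexo2, an exonuclease for short RNAs, had 5229 in the same library and between 7 and 42 elsewhere. Grsf1 and Fastk, which bind or process mitochondrial RNA, had 3500 and 1417 counts in HFD replicate 1, and between 41 and 73 and between 38 and 48 elsewhere. The fitted log2 differences were 5.41 for Grsf1 and 4.92 for Fastk, and -1.06 and -0.02 without that library. For Elac2 and Rexo2 they were 6.63 and 6.26, and 0.09 and -1.34 without HFD replicate 2. The adjusted p-values of these 5 genes in edgeR were between 0.406 and 0.986. HFD replicate 1, with the high values of Polrmt, Grsf1 and Fastk, was also the library with the highest rRNA share on chromosome M, and whether one bears on the other was not tested. DESeq2 called 6 genes of this list, namely the 5 genes Polrmt, Elac2, Rexo2, Grsf1 and Fastk and also Lrpprc. Lrpprc stabilises mitochondrial mRNAs and was not among the named genes. Its counts were high only in HFD replicate 1, at 1606, and lay between 22 and 88 elsewhere. Among all genes to which DESeq2 gave an adjusted p, 45.3% were called. Polg2 received no adjusted p, and how many genes of this list did is not given here. The 6 genes called therefore cannot be compared with that share.

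The mRNAs of mitochondria were set beside 84 nuclear genes of respiratory chain and ATP synthase subunits, which took 3.13% and 4.64% of all counts in ND and 2.02% and 1.34% in HFD replicates 1 and 2. The summed RPKM of the 13 mitochondrial mRNAs was 1.82 and 1.17 times that of the nuclear genes in ND, against 0.733 and 3.38 times in HFD replicates 1 and 2. The HFD libraries thus had the lowest and the highest ratio, and the log2 ratios differed by 0.11 between the diets (n = 2 each; exact permutation test, two-sided p = 1). Without HFD replicate 2 the difference was -0.99. For Atp5o, these shares and ratios used an identifier without counts, while the fit used another identifier of the same gene. Of the nuclear genes, 76 were tested and 0 were called. A fitted value above 0 was found for 30 and below 0 for 46, with a median log2 difference of -0.58. Among them 1 above and 14 below reached an unadjusted p under 0.05 in edgeR. Of all 19335 genes tested, 932 above and 1239 below reached it, 11.2% for both directions together. Cox4i1, a subunit of complex IV, had the highest mean level, with 11212 and 33579 counts in ND replicates 1 and 2, against 28846 and 13172 in HFD replicates 1 and 2. Ndufs6 and Ndufv2, subunits of complex I, had 56579 and 42479 counts in ND replicate 2, while Ndufs6 held between 16 and 952 and Ndufv2 between 17 and 9307 in the other libraries.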

How the data were processed

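The authors used Trim Galore for trimming, HISAT2 for alignment (mm10) and featureCounts for reads per gene, and deposited raw counts, 1 library per sample, without normalization. The annotation release, the strand setting and the treatment of reads that align to several places are not given in the sources used here. GENCODE M21 gave names, positions and exon lengths (260 identifiers were not listed there). Nuclear copies were sought among its annotated pseudogenes only, with blastn 2.17.0. The diets were compared in R 4.3.3 with edgeR 4.0.16 (glmQLFit with legacy FALSE, glmQLFTest) on all genes after TMM and filterByExpr, with Benjamini-Hochberg adjustment and limits of an adjusted p under 0.05 and 1.5-fold. TMM factors were 1.02 and 0.940 for ND and 0.692 and 1.51 for HFD. Shares were compared with exact permutation tests (scipy 1.17.1). Standard errors of log2 differences are their size over the square root of F.

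Alternatives were other scalings and filters, DESeq2 1.42.0, limma-voom 3.58.1, edgeR's legacy fit, a replicate block and each library left out in turn. The fitting code was tested on simulated data. Named genes were all 37 members, the 4 most abundant genes and the 4 of smallest p of the processing list, the 3 copies with the most counts and the 3 most abundant nuclear chain genes. The members and lists were chosen with earlier results of these data known, and the copied stretch, the 11 RNAs given in full and the split of mt-Tq and mt-Tp from other tRNAs were chosen after their counts were seen. The replicates were not duplicates, since their counts differed far beyond sampling noise (chi-square per degree of freedom of 342 in ND and 310 in HFD). The genome itself was not used here.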

Additional observations from a re-analysis of the deposited data

How the results depend on the processing

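Across 28 results, 319 alternatives were computed, of which 289 were counted as unchanged. Shares and ratios were judged by sign only, single genes by sign and by staying uncalled, and the 2 gene lists by the number called. Apart from edgeR's legacy fit, no edgeR or limma-voom setting called any gene of the whole library. Staying uncalled in those settings therefore says little about stability. With 2 libraries per diet, unchanged p-values of the exact tests say nothing about stability, since none could pass. DESeq2 called 3 members and 6 genes of the processing list, where edgeR called 0 of each. edgeR's legacy fit called 34 genes in all and 0 members. Scaling by library size only moved the median of all genes from 0.03 to 0.21, and gave Polg 0.28 on the log2 scale. limma-voom gave mt-Nd6 0.0534. The difference in log2 ratio to the nuclear chain, 0.11, became -0.0219 without division by length, -1.01 with medians in place of sums and, in alternatives chosen after seeing the data, -0.0104 with mRNAs outside the copied stretch. The tRNA share without mt-Tq and mt-Tp, also chosen after seeing the data, differed by 0.00227 percentage points. Leaving out 1 library at a time gave ranges of -0.0620 to 0.00506 percentage points for the tRNA share of the library, -1.24 to 0.0767 for its share of chromosome M, 2.22 to 3.87 for the rRNA share of the library, -3.53 to -1.17 for the mRNA share, 0.307 to 1.02 for all 37 genes and -0.99 to 1.21 for the log2 ratio to the nuclear chain. For single genes the log2 ranges were -0.75 to 0.73 for mt-Nd6, -5.08 to 1.57 for mt-Tq, -0.35 to 2.56 for mt-Rnr1, -5.54 to 5.30 for Polg, -1.06 to 6.41 for Grsf1, -0.0239 to 5.91 for Fastk and -1.34 to 7.14 for Rexo2. With 1 library in a diet, edgeR takes its spread from the other diet. Adding nuclear copies cannot change the rRNA or tRNA share of the library. The labels do not say whether replicate numbers pair the samples. Deviations of same-numbered libraries had a correlation of 0.0112 across genes. The wide spread of single genes between replicates could hide a shared effect, so this value does not exclude pairing. With the replicate number as a block, 0 members and 0 processing genes were called, mt-Nd6 was at 0.0397, the rRNA share differed by 3.75 and 2.34 percentage points within replicates 1 and 2, and the mRNA share by -3.77 and -0.93. The cause of these shifts was not tested.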
